A study of Mus musculus with 20 samples.

Results

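Hprt1, Gusb, Tbp and Hsp90ab1 are 4 genes often used as references in real-time PCR, because many tissues express them at a steady level. They were taken by symbol from the TaqMan OpenArray mouse inflammation panel, where 9 of 648 assays (4 of 584 gene symbols) measure them: 4 assays for Hprt1, 3 for Gusb, 1 for Tbp and 1 for Hsp90ab1. All 9 gave a value in all 20 samples of mouse ileal mucosa, so none was lost to a filter. The samples form 4 groups of 5. The healthy group was given PBS, a salt buffer, by the intrarectal and the oral route. The remaining 15 samples had intrarectal DNBS, a hapten (dinitrobenzene sulfonic acid) used to set off gut inflammation, with oral PBS in the DNBS group, oral CEC, which the labels do not spell out, in the CEC group, and oral Nissle, the name of a probiotic Escherichia coli strain, in the Nissle group. Strain, age and sex are not given in the sources used here. Samples are named here by their group and the number in their title (healthy 1b, 3, 4, 5 and 6; DNBS 1 to 5; CEC 1, 3, 5, 7 and 8; Nissle 1 to 5). For Nissle 3, 4 and 5 one label names the healthy controls, against their title, description and both treatment labels; they were kept as Nissle samples. The series text speaks of RNA pooled from mice, and it is not clear whether a sample is 1 animal, and the p-values below reflect the spread among the 20 samples alone, part of which may be technical.

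A reference gene is used to cancel differences in RNA input and reverse transcription between samples, and it serves only if its own level does not move with the condition. Hprt1 encodes hypoxanthine phosphoribosyltransferase of purine salvage, Gusb the lysosomal enzyme beta-glucuronidase, Tbp the TATA-binding protein that helps to place RNA polymerases at promoters, and Hsp90ab1 the constitutive cytosolic HSP90 chaperone. They belong to unrelated pathways, which is why they are often combined. The panel reports a cycle threshold (Ct), the number of cycles needed to reach a set fluorescence, so a lower Ct means more template. The relative level of an assay was a sample's mean Ct, over the 544 assays detected throughout, minus its own Ct. It is a log2 value with the sample mean at 0, on the unmeasured assumption that product doubles at each cycle.

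Promoters of such genes often hold many CpG dinucleotides and no TATA box. RefSeq windows (GRCm38.p6) of 300 bases, 250 before and 50 after the annotated start, were at hand for 3 of the 4 genes. The 100 bases before the start are shown, on the gene's strand and with CpG in capitals, to show how unlike these promoters are.

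Hprt1 (RefSeq symbol Hprt), chrX:52987978-52988077, plus strand: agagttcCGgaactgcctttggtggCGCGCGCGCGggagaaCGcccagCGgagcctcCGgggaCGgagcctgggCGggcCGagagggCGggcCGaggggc
Gusb, chr5:130003050-130003149, minus strand: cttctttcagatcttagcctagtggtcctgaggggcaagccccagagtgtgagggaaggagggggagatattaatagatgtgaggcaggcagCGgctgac
Tbp, chr17:15499788-15499887, plus strand: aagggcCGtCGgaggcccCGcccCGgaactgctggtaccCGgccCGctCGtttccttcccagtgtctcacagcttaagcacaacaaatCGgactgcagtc

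Over the full 300 bases, Hprt1 held 22 CpG, Tbp 17 and Gusb 6, against a median of 7 in the 32851 RefSeq windows. Hprt1 lay above 76.9% of all windows by this count, Tbp above 68.6% and Gusb above 43.6%. TATAAA was found on neither strand of the 3 windows (13.6% of all windows hold it), nor was GAANNTTC, one short form of the heat shock element (7.86%). The form with the same units in the other order was not counted, and the Hprt1 sequence shown above holds it near its upstream end. The count therefore does not show that these windows lack short forms of the element. GGGCGG, the core of the GC box, was found at 3 places for Hprt1, 1 for Tbp and 0 for Gusb (35.7% of windows hold it). A match describes the letters only.

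All 4 genes were well detected. Hsp90ab1 had the lowest Ct, 17.0 to 18.7 over the 20 samples, followed by Hprt1 (mean of its 4 assays, 19.3 to 20.9), Gusb (mean of 3 assays, 20.6 to 22.8) and Tbp (21.1 to 22.8). The ranges of Hprt1 and Gusb, and those of Gusb and Tbp, overlapped, and Ct was not compared further between genes because assays can differ in efficiency. By group, the mean raw Ct of Hprt1 was 20.4 ± 0.54 in healthy, 19.96 ± 0.82 in DNBS, 20.1 ± 0.49 in CEC and 19.9 ± 0.61 in Nissle samples (SD, n = 5 each), and that of Gusb 21.9 ± 0.49, 21.4 ± 0.97, 21.7 ± 0.63 and 21.4 ± 0.88. For Tbp it was 22.0 ± 0.39, 21.5 ± 0.39, 22.2 ± 0.59 and 22.0 ± 0.29, and for Hsp90ab1 17.9 ± 0.43, 17.3 ± 0.35, 18.1 ± 0.65 and 17.8 ± 0.31, in the same order. The groups differed in mean raw Ct by less than 1 cycle for each gene, and their ranges overlapped. Much of the raw spread was shared with the sample: the mean Ct of the 544 assays ranged from 22.6 to 24.3 cycles, and 570 to 594 assays gave a value in a sample. Relative to the sample mean, the SD over 20 samples fell from 0.603 to 0.216 for the Hprt1 mean and from 0.740 to 0.323 for the Gusb mean. For Hsp90ab1 it went from 0.506 to 0.445, and for Tbp it went from 0.481 to 0.492. Division by the sample mean thus narrowed Hprt1 and Gusb and left the spread of Tbp as wide as that of its raw Ct. These SDs have an unlike basis, since Tbp and Hsp90ab1 rest on a single assay each. The least steady single assays of Hprt1 and Gusb narrowed too, from 0.894 to 0.603 and from 0.940 to 0.551, but stayed above Tbp.

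Some of the Hprt1 assays were among the steadiest on the panel. Hprt1_Mm01324427_m1 had the lowest SD of the relative level of all 544 assays, 0.224 over 20 samples, where the median assay had 0.657. Hprt1_Mm00446968_m1 (SD 0.253, rank 8), Gusb_Mm03003537_s1 (0.326, rank 33), Hprt1_Mm01318747_g1 (0.334, rank 36) and Gusb_Mm00446953_m1 (0.349, rank 44) followed. Hsp90ab1_Mm00833431_g1 (0.445, rank 101) and Tbp_Mm00446973_m1 (0.492, rank 139) lay further up, then Gusb_Mm01197698_m1 (0.551, rank 195) and Hprt1_Mm01318743_m1 (0.603, rank 237). Assays of a single gene were thus as far apart in rank as different genes. The order depended on the processing: with the runs of table rows described below centred, Hprt1_Mm01324427_m1 was at rank 27, Hprt1_Mm00446968_m1 at 13 and Tbp at 35, ahead of Gusb_Mm00446953_m1 (58) and Gusb_Mm03003537_s1 (60).

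**Figure D1:**
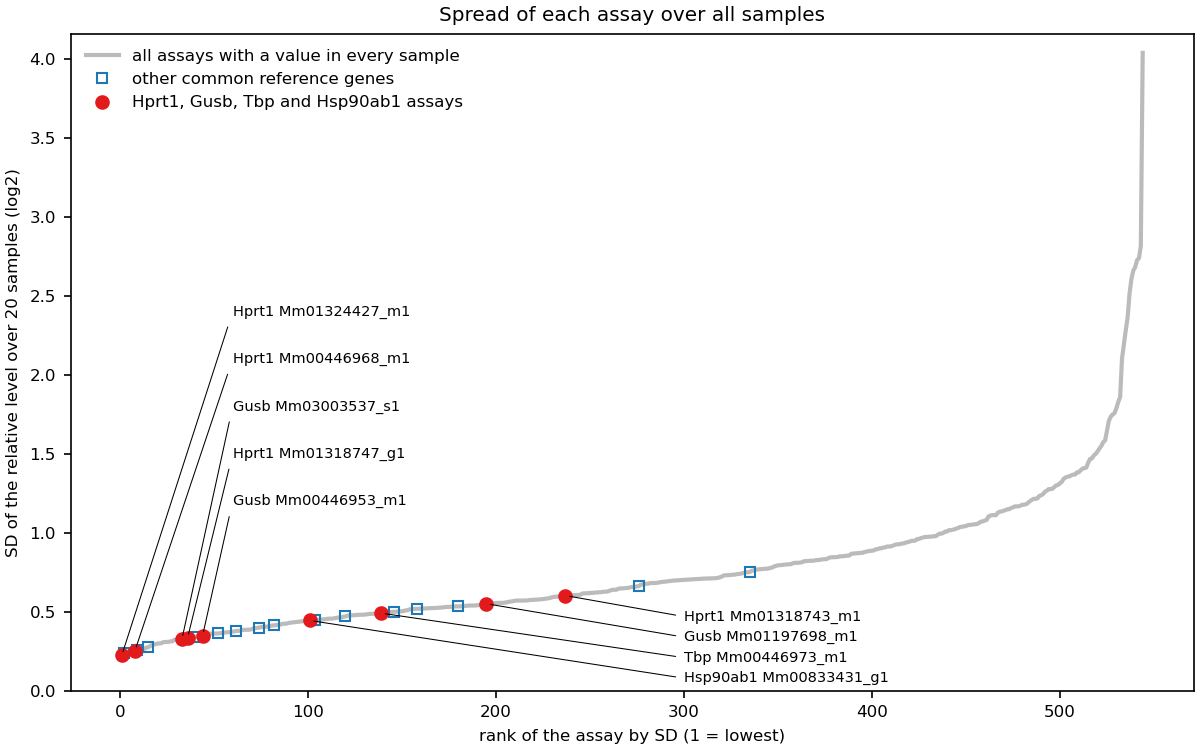
SD of the relative level over 20 samples (vertical axis, log2) of each of 544 assays detected throughout, ordered from the lowest (grey line; horizontal axis, rank). Red points are the 9 assays of Hprt1, Gusb, Tbp and Hsp90ab1, from rank 1 (0.224) to rank 237 (0.603), and open squares are 15 assays of other common reference genes.

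The other common reference genes on the panel spread over a like range. Of 13 such genes with 15 assays, all measured in every sample, Ppia_Mm02342430_g1, for the peptidyl-prolyl isomerase cyclophilin A, was the steadiest (SD 0.240, rank 2). Actb_Mm00607939_s1, for beta-actin, had an SD of 0.276 (rank 15) and Gapdh_Mm99999915_g1, for the glycolytic dehydrogenase, 0.363 (rank 52). B2m_Mm00437762_m1, for the light chain of MHC class I, had 0.535 (rank 180), and the least steady was Rplp2_Mm00782638_s1, for a ribosomal stalk protein (0.752, rank 335). The remaining 3 assays among the 5 lowest were no reference genes: Tgfbr1_Mm00436964_m1 (0.244), Tnfrsf1a_Mm01182929_m1 (0.245) and Jak1_Mm00600614_m1 (0.251), for a TGF-beta receptor, a TNF receptor and a cytokine receptor kinase.

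The values by sample show where the spread came from. Hprt1_Mm01324427_m1 had relative levels of 2.89, 2.85, 3.05, 3.29 and 2.91 in healthy 1b, 3, 4, 5 and 6 and of 3.27, 3.01, 3.05, 3.21 and 3.04 in DNBS 1 to 5. It had 2.80, 2.60, 3.05, 2.93 and 3.06 in CEC 1, 3, 5, 7 and 8 and 2.47, 2.66, 2.64, 2.89 and 3.14 in Nissle 1 to 5. The groups overlapped throughout, with Nissle 1 lowest and healthy 5 highest.

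Hprt1_Mm01318743_m1, another assay of the same transcript, looked different. Its relative levels were 2.79, 3.53, 3.40, 1.52 and 3.10 in healthy 1b, 3, 4, 5 and 6 and 3.43, 3.76, 3.33, 3.55 and 2.12 in DNBS 1 to 5. They were 3.92, 3.55, 4.24, 3.81 and 3.57 in CEC 1, 3, 5, 7 and 8 and 3.41, 3.24, 3.47, 3.24 and 3.38 in Nissle 1 to 5. Healthy 5 and DNBS 5 were the 2 lowest samples. All 5 CEC samples lay above all 5 healthy ones, though CEC 3 (3.55) and healthy 3 (3.53) were close. How many of all assays part these groups is not given here.

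Gusb_Mm01197698_m1 was also lowest in healthy 5 and DNBS 5. It had relative levels of 1.16, 1.31, 1.84, 0.34 and 1.92 in healthy 1b, 3, 4, 5 and 6 and of 2.22, 2.29, 1.59, 2.37 and 0.44 in DNBS 1 to 5. The CEC samples lay between 1.51 and 2.02 and the Nissle samples between 1.10 and 2.04, within the span of the other groups.

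Tbp showed the opposite order in these samples. Its relative levels were 1.59, 1.18, 1.24, 2.34 and 1.46 in healthy 1b, 3, 4, 5 and 6 and 1.66, 1.30, 1.97, 1.81 and 2.54 in DNBS 1 to 5, so that healthy 5 and DNBS 5 were the highest. It had 0.83, 1.10, 1.69, 1.59 and 1.52 in CEC 1, 3, 5, 7 and 8 and 0.53, 0.73, 1.38, 1.55 and 1.23 in Nissle 1 to 5. All groups overlapped, and Nissle 1 and 2 and CEC 1 were the lowest.

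Hsp90ab1 had relative levels of 5.29, 5.66, 5.53, 5.86 and 5.81 in healthy 1b, 3, 4, 5 and 6 and of 6.06, 5.44, 6.29, 5.91 and 6.28 in DNBS 1 to 5. It had 4.88, 4.87, 5.94, 5.91 and 5.63 in CEC 1, 3, 5, 7 and 8 and 4.84, 4.99, 5.43, 5.81 and 5.60 in Nissle 1 to 5. Again all groups overlapped, and CEC 1 and 3 and Nissle 1 and 2 were the lowest.

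The other 4 assays had overlapping groups as well. Over the 20 samples Hprt1_Mm00446968_m1 ranged from 2.75 to 3.68, Hprt1_Mm01318747_g1 from 3.25 to 4.33, Gusb_Mm00446953_m1 from 1.34 to 2.36 and Gusb_Mm03003537_s1 from 1.31 to 2.53. Healthy 5 was the highest sample for Hprt1_Mm00446968_m1 and Gusb_Mm03003537_s1 and the lowest for Hprt1_Mm01318747_g1, so that the assays of each gene parted in this sample.

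**Figure D2:**
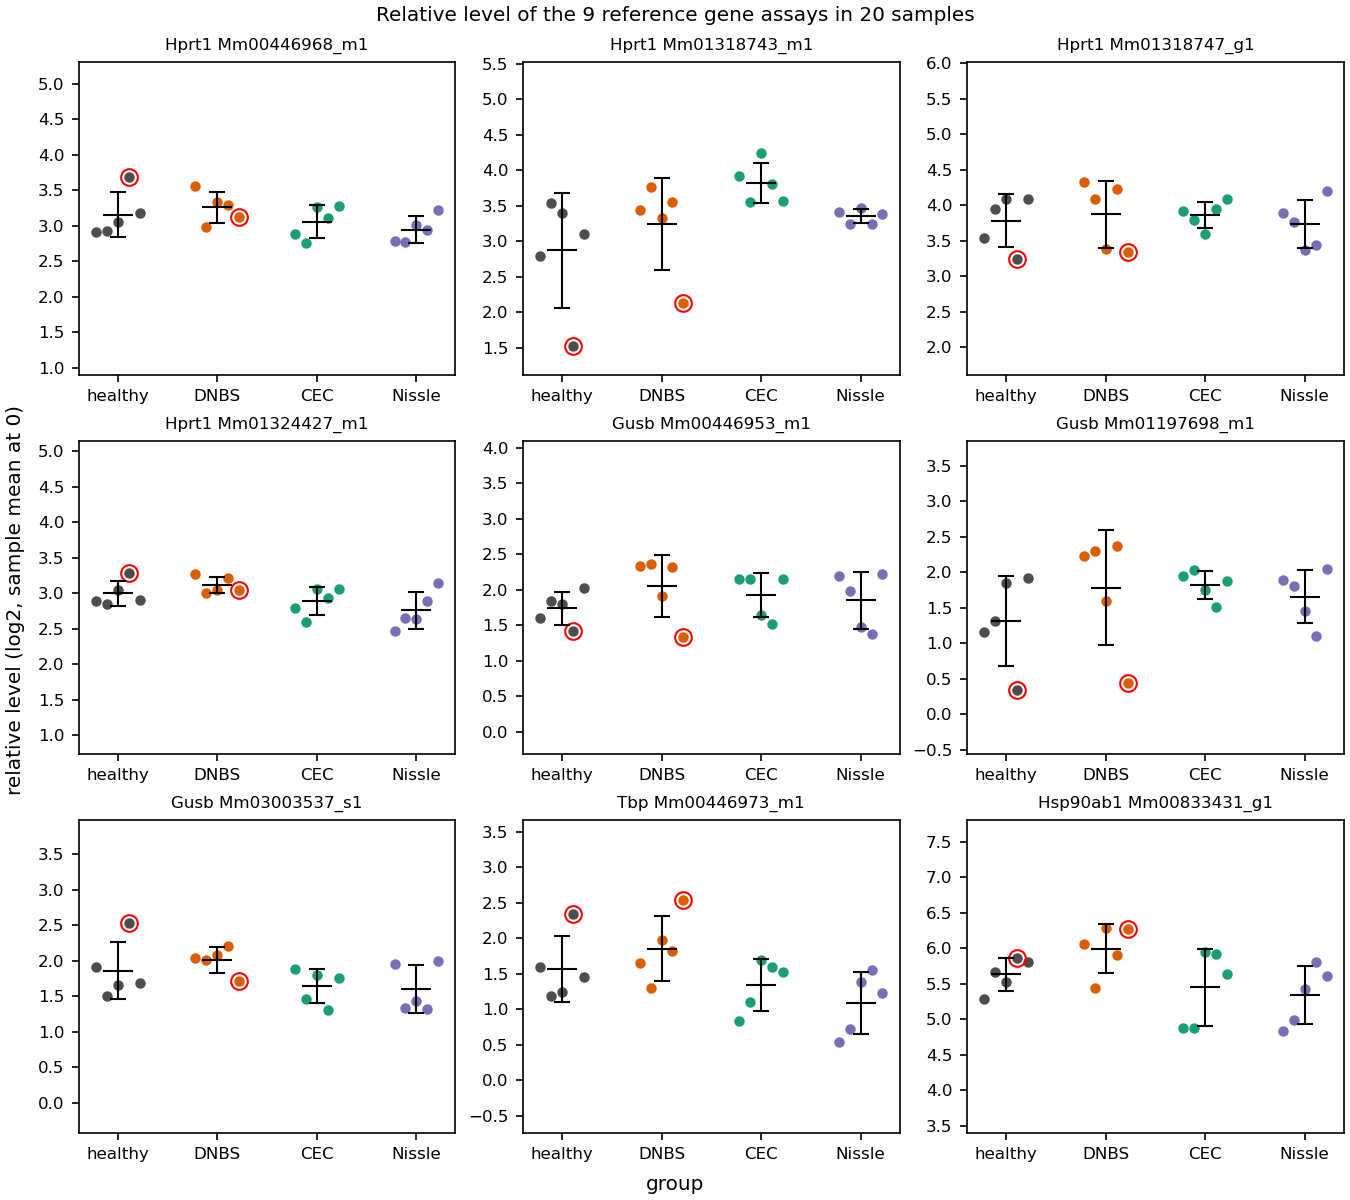
Relative level (vertical axis, log2 with the sample mean at 0) of each of the 9 assays by group (horizontal axis). Points are samples, bars the group mean and SD (n = 5), and red rings mark healthy 5 and DNBS 5, which are lowest for Hprt1_Mm01318743_m1 (1.52 and 2.12) and highest for Tbp (2.34 and 2.54) within their groups; each panel spans the same number of log2 units.

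Whether DNBS, CEC or Nissle moved these genes was tested with limma over all 20 samples. None of the 9 assays was called at an adjusted p under 0.05 (limma, Benjamini-Hochberg over 569 assays) in the 7 comparisons or in the moderated F test of any difference among the 4 groups. The share called among all 569 assays was 0.176% (1 assay) in DNBS against healthy, CEC against healthy, Nissle against healthy, all DNBS-treated against healthy and the F test, and 0% in CEC against DNBS, Nissle against DNBS and CEC against Nissle. So few assays were called that the absence of a call for 9 of them says little, and the intervals of the differences say more. Of the 63 differences (9 assays in 7 comparisons), 5 had an unadjusted p under 0.05. There was 1 in CEC against healthy (22 of all 569 assays) and 1 in CEC against DNBS (61 of 569). There were 2 in Nissle against DNBS (24 of 569) and 1 in all DNBS-treated against healthy (69 of 569). Elsewhere 0 of the 9 had one (DNBS against healthy 83 of 569, Nissle against healthy 54, CEC against Nissle 8). Other assays thus had such values too, and counts of 0 to 2 among 9 assays are too small to compare with these shares.

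Against the healthy controls, all 9 assays had higher mean levels in the DNBS group, by 0.09 to 0.47 (median 0.29, limma adjusted p 0.543 to 0.901); 254 of the 569 assays were higher there, with a median of -0.07. The smallest difference was that of Hprt1_Mm01318747_g1 (0.09, SE 0.24) and the largest that of Gusb_Mm01197698_m1 (0.47, SE 0.34). Tbp differed by 0.29 (SE 0.28) and Hsp90ab1 by 0.37 (SE 0.25). With the sample number as a replicate block, 2 of 569 assays were called in this comparison and again 0 of the 9.

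In the CEC group, 4 of 9 assays were higher than in healthy controls (median -0.10; 250 of 569 assays higher, median -0.08). Hprt1_Mm01318743_m1 stood at 3.82 ± 0.28 in CEC and 2.87 ± 0.80 in healthy samples (SD, n = 5 each), a difference of 0.95 (SE 0.33; 95% interval 0.27 to 1.63; limma adjusted p = 0.803). The difference was 0.61 (SE 0.19) without DNBS 5 and healthy 5. The other 3 Hprt1 assays differed by -0.11 to 0.09 in the same samples. Over all 15 DNBS-treated samples the same assay was 0.60 higher than in healthy controls (SE 0.27; limma adjusted p = 0.359), and 0.36 without those 2 samples.

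Against the DNBS group, 8 of 9 assays were lower in the Nissle group (median -0.31; 256 of 569 assays higher, median -0.06). Tbp was at 1.08 ± 0.44 in Nissle and 1.86 ± 0.46 in DNBS samples (SD, n = 5 each), a difference of -0.77 (SE 0.28; 95% interval -1.36 to -0.18; limma adjusted p = 0.850). Hsp90ab1 was at 5.33 ± 0.41 and 5.99 ± 0.35 (SD, n = 5 each), a difference of -0.66 (SE 0.25; 95% interval -1.19 to -0.13; limma adjusted p = 0.850). It was also lower in CEC than in DNBS samples, by -0.55 on the log2 scale (SE 0.25; 95% interval -1.08 to -0.02; limma adjusted p = 0.455). Without Nissle 3, 4 and 5, whose labels conflict, the differences from DNBS samples were -1.23 for Tbp (SE 0.37) and -1.09 for Hsp90ab1 (SE 0.33; limma adjusted p = 0.368 for both). The DNBS samples are shared by these comparisons, and the healthy samples by those above.

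To read the intervals, they were set against 1 log2 unit in either direction, a 2-fold change. The 95% interval lay within it for 48 of the 63 differences. It did so in all 7 comparisons for 5 assays: Hprt1_Mm00446968_m1, Hprt1_Mm01318747_g1, Hprt1_Mm01324427_m1, Gusb_Mm00446953_m1 and Gusb_Mm03003537_s1. The number was 5 of 7 for Hsp90ab1, 4 of 7 for Tbp, 3 of 7 for Gusb_Mm01197698_m1 and 1 of 7 for Hprt1_Mm01318743_m1. Among all 569 assays, 28.6% to 38.8% of intervals lay within the limit in the comparisons of 2 groups and 49.4% for all DNBS-treated samples against healthy controls. Of the 15 other intervals, 10 held both 0 and a change of 2-fold, and 5, those with an unadjusted p under 0.05, held a change of 2-fold but not 0. With raw Ct in place of the relative level, 19 of the 63 intervals lay within the limit, and 0 of 9 in DNBS against healthy and in CEC against DNBS.

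**Figure D3:**
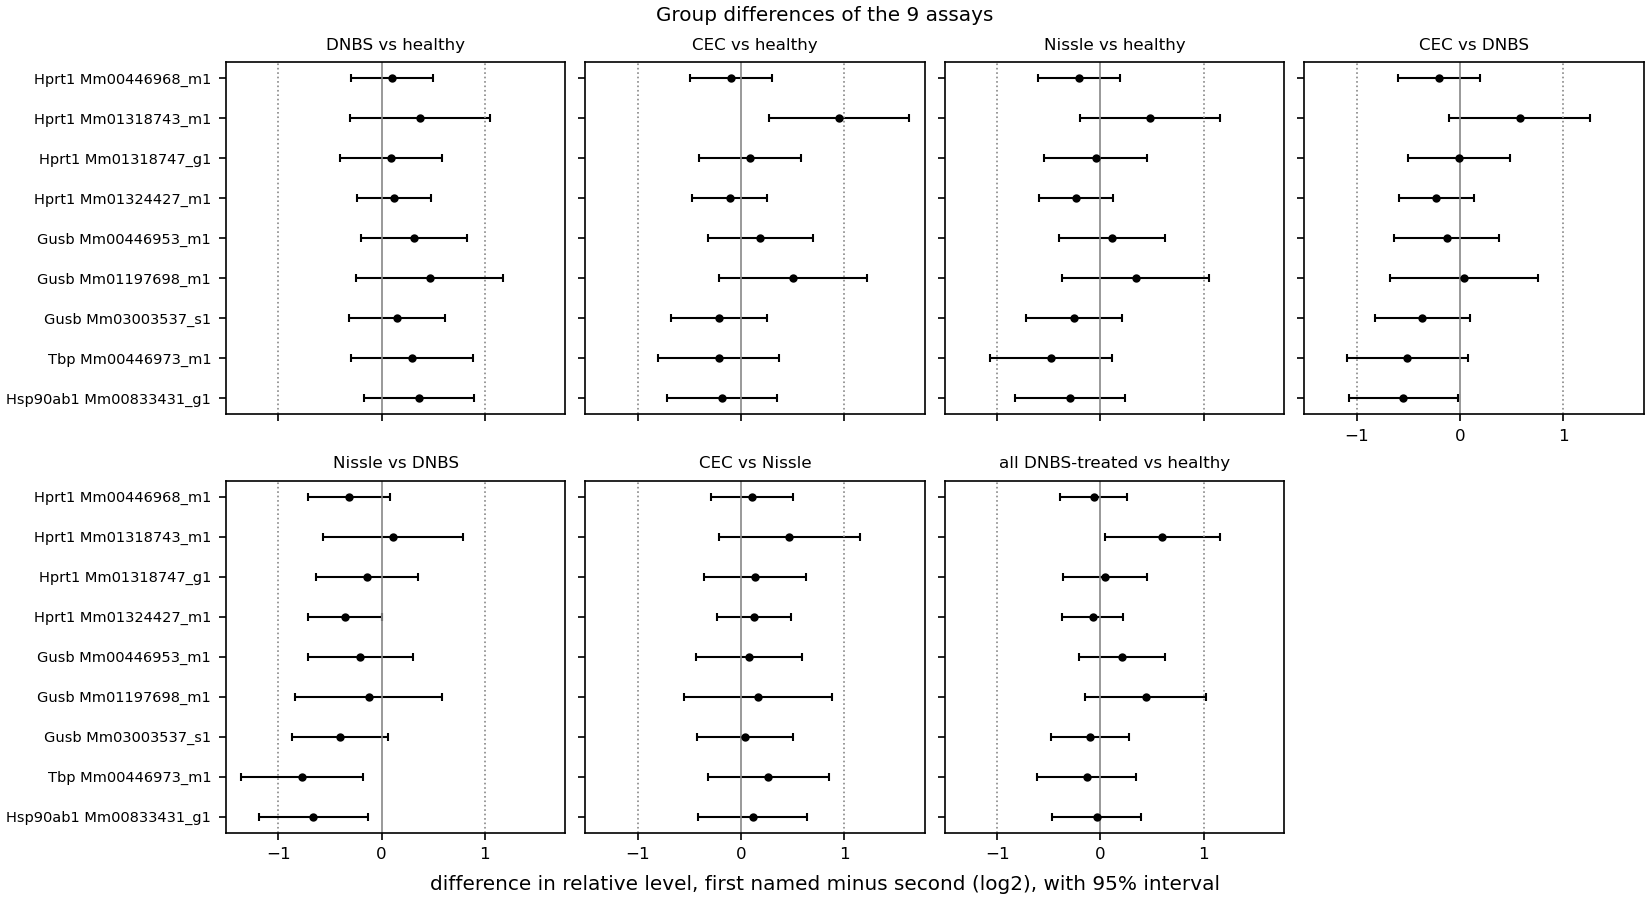
Difference in relative level (horizontal axis, log2, first named group minus second) of the 9 assays in each of the 7 comparisons, with its 95% interval from limma. Dotted lines mark 1 log2 unit in either direction; 48 of the 63 intervals lie between them, and the widest departures are Hprt1_Mm01318743_m1 in CEC against healthy (0.95) and Tbp in Nissle against DNBS (-0.77).

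Assays of the same gene should move together, since they read the same transcript unless isoforms differ. The suffix of an assay tells part of its design: m1 spans an exon junction, g1 also does but may read genomic DNA, and s1 lies within a single exon. After each assay's own mean over the 20 samples was removed, the gap between the highest and the lowest of the 4 Hprt1 assays had a median of 0.49 over the samples, but reached 2.38 in healthy 5 and 1.30 in DNBS 5. The gap among the 3 Gusb assays had a median of 0.32 and reached 2.05 in healthy 5 and 1.14 in DNBS 5. In the other 18 samples it stayed at or under 1.14 for Hprt1 and 0.698 for Gusb. The SD of the Ct difference over 20 samples was 0.124 for Hprt1_Mm00446968_m1 and Hprt1_Mm01324427_m1, the closest pair, and 0.730 for Hprt1_Mm00446968_m1 and Hprt1_Mm01318743_m1. Among 37 other genes with more than 1 assay, the 53 pairs from different runs of the table, as defined next, had a median SD of 0.662.

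These gaps went with the place of the assay in the deposited table. The rows fall into 12 runs of 52 to 56 rows within which the assay numbers climb and then start again; the sources used here do not say what a run stands for. In healthy 5 and DNBS 5 the runs stood furthest apart: the mean deviation of the assays of a run, from their means over all samples, spanned 2.69 and 2.46 between the lowest and the highest run, against 0.258 to 1.81 in the other samples. Hprt1_Mm01318743_m1 deviated by -1.80 in healthy 5, where the 39 other assays of its run deviated by -1.42 on average. Tbp deviated by 1.08 in DNBS 5, where the 50 other assays of its run deviated by 1.16. Of the 180 values of the 9 assays, 128 had the sign of the mean deviation of their run. The pair of Hprt1 assays that agreed best shares a run, and the other 8 pairs of Hprt1 or Gusb assays do not. Sharing a run did not always go with so small an SD. The 8 pairs of assays of 5 other genes that share a run had a median of 0.556 and a highest value of 1.01. That median is little below the one of pairs from different runs, but it mixes genes, and several of the 8 pairs are of Alox5 alone. Within Rhoa the pair sharing a run had 0.113, against 0.284 and 0.274 for pairs from different runs. Within Alox5 pairs sharing a run had 0.543 to 0.692 and the others 0.606 to 0.915. Within Hgf the pair sharing a run lay between the others (0.370 and 0.540). What part the runs have in any difference between groups was not tested.

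**Figure D4:**
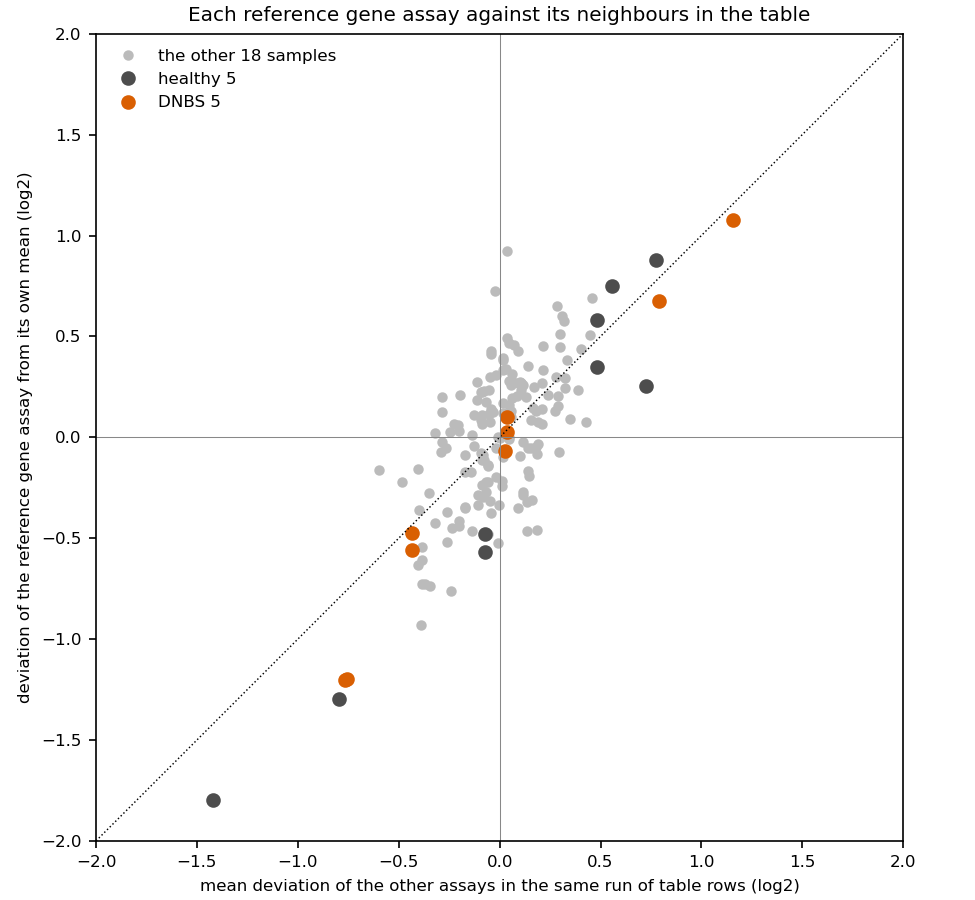
Deviation of each of the 9 assays from its own mean in each sample (vertical axis, log2) against the mean deviation of the other assays in its run of table rows (horizontal axis, log2); each point is 1 assay in 1 sample, and the dotted line marks equal deviations. Healthy 5 and DNBS 5 hold the points furthest out, such as -1.80 against -1.42 for Hprt1_Mm01318743_m1 in healthy 5, and 128 of 180 points have the same sign on both axes.

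When each run was centred within each sample, the spread of several assays shrank: Tbp had an SD of 0.249, Gusb_Mm01197698_m1 0.312 and Hprt1_Mm01318743_m1 0.330, while Hprt1_Mm01324427_m1 stayed at 0.235. The median over all 544 assays went from 0.657 to 0.520. All 63 intervals then lay within 1 log2 unit, and still none of the 9 assays was called (limma, smallest adjusted p 0.142). The difference of Hprt1_Mm01318743_m1 between CEC and healthy samples became 0.58 (SE 0.18; limma adjusted p = 0.781). That of Tbp between Nissle and DNBS samples became -0.46 (SE 0.14; limma adjusted p = 0.984). Without healthy 5 and DNBS 5 and with no centring, the SD of Hprt1_Mm01318743_m1 was 0.321 and that of Tbp 0.380.

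A ratio of 2 reference genes needs no other normalizer. The Ct difference of each of the 36 pairs of the 9 assays was compared between the 15 DNBS-treated and the 5 healthy samples with a two-sided exact permutation test. No pair passed at an adjusted p under 0.05 (smallest 0.408 over 36 pairs, exact permutation test), and 3 pairs had an unadjusted p under 0.05. The smallest belonged to Hprt1_Mm01318747_g1 over Gusb_Mm01197698_m1, whose log2 ratio was 2.47 ± 0.30 in healthy samples (SD, n = 5) and 2.07 ± 0.31 in DNBS-treated ones (SD, n = 15; exact permutation p = 0.0214). The other 2 were pairs of Hprt1_Mm01318743_m1 with another Hprt1 assay. Tbp over Hsp90ab1 was among the steadier ratios, with a log2 ratio of -4.07 ± 0.43 in healthy samples and -4.16 ± 0.20 in DNBS-treated ones (SD, n = 5 and 15; exact permutation p = 0.506). The steadiest pair of different genes was Hprt1_Mm01318747_g1 and Gusb_Mm00446953_m1, which share a run (SD of the log2 ratio 0.218 over 20 samples), and the least steady was Hprt1_Mm01318743_m1 and Tbp (0.971).

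For each of the 9 assays the 3 assays of other genes with the smallest SD of the Ct difference over 20 samples were listed. They are described only, since each pair shares its samples and 12 of the 27 also share a run. Nearest to Tbp were Irak1 (0.179) and Txlna (0.190), both in its run, and Sod1 (0.192), for superoxide dismutase. Nearest to Hsp90ab1 were Sod1 (0.226), Ywhaz (0.238) and Dnajc8 (0.239). Hprt1_Mm01324427_m1 had Sdcbp (0.152), Abcf1 (0.189) and Ppia (0.201), and Myd88, for a Toll-like receptor adaptor, was nearest to all but 1 of the Gusb assays. The median SD over other assays was 0.760 for Tbp, 0.744 for Hsp90ab1 and 0.666 for Hprt1_Mm01324427_m1.

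The choice of reference changed what was called elsewhere on the panel. In DNBS against healthy, 1 of 569 assays was called relative to the sample mean: Atrn, for the glycoprotein attractin. Relative to Hprt1 or to Gusb (mean of their assays) it was again 1. Relative to Tbp 22 of 568 were called, all lower in DNBS, and relative to Hsp90ab1 39 of 568, all lower (limma, adjusted p under 0.05; a single-assay reference leaves out its own assay). Relative to the mean of the 4 genes (each gene's assays averaged first, so that the genes weigh alike) 38 were called, 37 of them lower. Relative to the sample mean each reference was higher in DNBS samples, though none of the 9 assays was called. By arithmetic, the differences of all other assays are lower by that amount. The median difference over the tested assays was -0.07 by the sample mean, -0.25 by Hprt1, -0.38 by Gusb and -0.37 by Tbp. It was -0.44 by Hsp90ab1 and -0.36 by the mean of the 4 genes. Medians and counts did not go in step: Gusb and Tbp had near medians but 1 and 22 calls. Why the counts differ was not tested. Hsp90ab1 as reference also gave 22 calls in CEC against DNBS, all higher in CEC, where the other references gave 0 with all samples. Hprt1 and Gusb are means of several assays from different runs, while Tbp and Hsp90ab1 are single assays. Gene, number of assays and run therefore cannot be told apart in these counts.

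These counts moved with single samples. Without DNBS 5, the count in DNBS against healthy became 30 relative to Hprt1 and 46 relative to Gusb, against 1 each with all samples, and 14 for either without Nissle 1. Relative to Tbp it lay between 3 (without healthy 4) and 49 (without healthy 5), and relative to Hsp90ab1 between 18 (without DNBS 4) and 59 (without DNBS 5). Relative to the mean of the 4 genes it lay between 2 (without DNBS 4) and 64 (without DNBS 5). The 22 calls of Hsp90ab1 in CEC against DNBS became 0 without CEC 1, CEC 8, DNBS 3 or DNBS 4, 5 without CEC 3, 13 without DNBS 1, 36 without healthy 5 and 71 without DNBS 2. In the same comparison Tbp gave 17 calls without healthy 5, so calls were not limited to Hsp90ab1. The mean of the 4 genes gave 18 without healthy 5 and 9 without DNBS 2. Without both DNBS 5 and healthy 5, the counts in DNBS against healthy were 8 by Hprt1, 16 by Gusb and 26 by Tbp. They were 45 by Hsp90ab1 and 61 by the mean of the 4 genes.

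**Figure D5:**
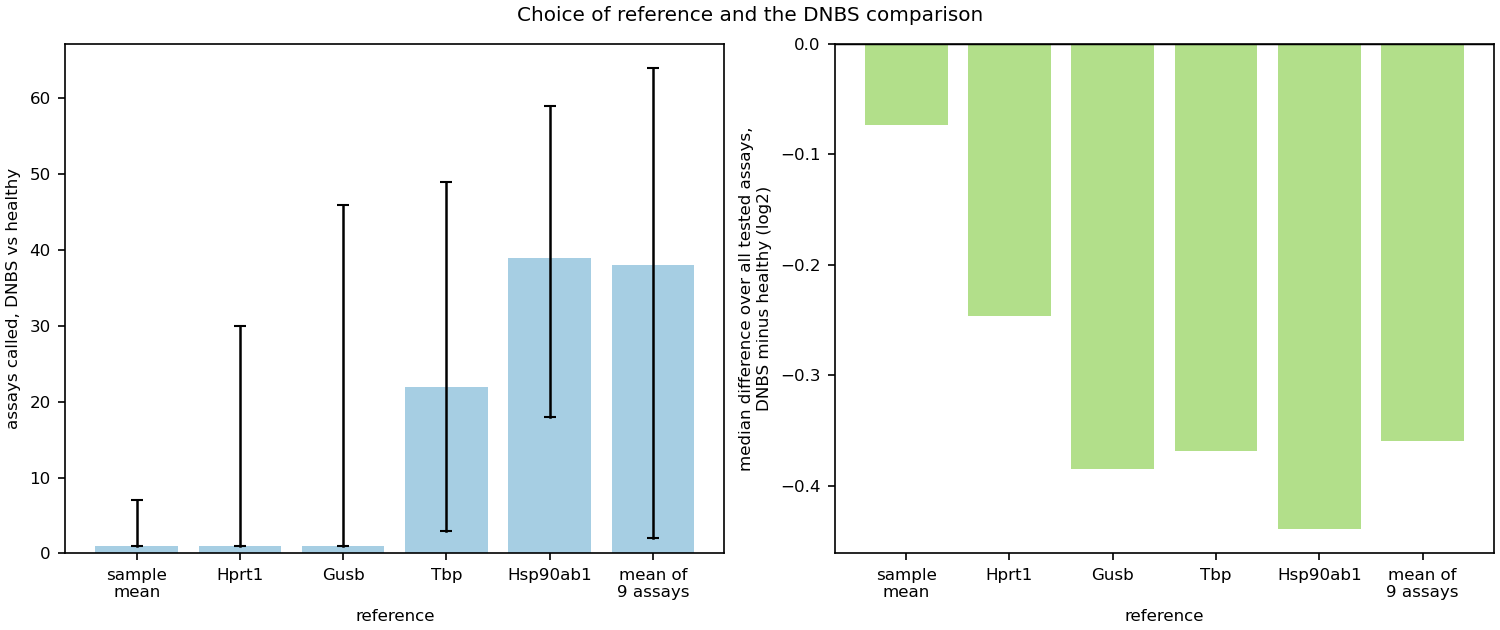
Left, number of assays called in DNBS against healthy (limma, adjusted p under 0.05) with each reference (bars, from 1 to 39), and the lowest and highest number when 1 sample is left out (black lines). Right, median difference over all tested assays (log2, DNBS minus healthy), which is -0.07 by the sample mean and -0.44 by Hsp90ab1. The bars labelled as the mean of 9 assays stand for the mean of the 4 genes, each gene's assays averaged first.

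Another reference adds the same amount to every assay's difference, so it moves small differences more than large ones in proportion. Il6 (assay Il6_Mm00446190_m1), the cytokine, was 4.62 higher in DNBS than in healthy samples by the sample mean (SE 1.22; limma adjusted p = 0.122), 4.45 by Hprt1, 4.31 by Gusb, 4.32 by Tbp and 4.25 by Hsp90ab1. By the mean of the 4 genes it was 4.33 (SE 1.29, limma adjusted p = 0.0488), the one setting of these in which it passed. Cxcl2, a neutrophil chemokine, was 4.78 higher by the sample mean (SE 1.27; limma adjusted p = 0.122) and 4.41 to 4.61 higher by the other references, with adjusted p between 0.0521 and 0.0967. The 2 Il1b assays, for interleukin-1 beta, differed by 1.71 and 1.81 by the sample mean and by 1.35 to 1.64 by the references in DNBS against healthy. Where the difference was small the sign turned: in Nissle against DNBS, Il1b_Mm99999061_mH was at -0.61 by the sample mean, 0.16 by Tbp and 0.05 by Hsp90ab1, and in CEC against healthy at -0.17, 0.05 and 0.01, none of them called. Both S100a8 assays, for a calprotectin subunit, were 3.83 and 4.42 higher by the sample mean and 3.47 to 4.25 by the references, and none of them passed. Atrn was lower by 3.04 on the log2 scale with the sample mean (SE 0.45; limma adjusted p = 0.000628) and by 3.22 to 3.41 with the references. In CEC and in Nissle against healthy Atrn was called by the sample mean, Hprt1 and Gusb. It was not called by Tbp, Hsp90ab1 or the mean of the 4 genes. The difference in Nissle against healthy was -2.45 by the sample mean (SE 0.45) and -1.97 by Tbp (SE 0.62). In CEC against healthy it was -2.20 by the sample mean (limma adjusted p = 0.0444). By Tbp, Hsp90ab1 and the mean of the 4 genes it was -1.98, -2.01 and -2.19 there. The sample-mean call in CEC against healthy was also lost, with 0 assays called, with the median as normalizer, quantile normalization, no normalization, no variance trend, only the compared groups in the fit, the replicate block and without Nissle 3, 4 and 5. In Nissle against healthy it was lost with no normalization, only the compared groups, the replicate block and without Nissle 3, 4 and 5.

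The spread left in other assays is given as a description; the sample mean is computed from these same assays, so its low value is built in. The median SD of the 535 other assays was 0.788 for raw Ct, 0.672 relative to the sample mean and 0.671 relative to the mean of the 4 genes. It was 0.703 relative to Hprt1, 0.744 relative to Hsp90ab1, 0.760 relative to Tbp and 0.764 relative to Gusb. Among the references that do not draw on the 535 assays, the mean of the 4 genes left the least spread.

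The tissue was checked against markers on the panel, as a bulk sample in which fewer cells of a type and less RNA per cell cannot be told apart. Of 18 epithelial genes listed, 5 are on the panel (6 assays): Apoa1, Krt8, Reg3g and Ccl25 were detected in all 20 samples and Apoa4 in none. Their mean relative level ranged from 6.91 to 8.41 in healthy, 6.88 to 7.88 in DNBS, 7.91 to 8.67 in CEC and 6.90 to 8.50 in Nissle samples. For 8 neutrophil assays (7 of 14 listed genes) it ranged from -3.29 to -1.71 in healthy, -2.25 to 0.79 in DNBS, -2.82 to 0.45 in CEC and -2.43 to 2.66 in Nissle samples. For 10 assays of macrophages, monocytes and dendritic cells (10 of 16 genes) it ranged from -2.26 to -1.21, -1.59 to 0.12, -1.64 to 0.44 and -1.29 to 0.68 in the same order. In DNBS against healthy 8 of 8 neutrophil assays were higher (median 2.14), 8 of 10 of the macrophage list (median 0.52) and 1 of 5 tested epithelial assays (median -0.72). The single B cell gene detected in every sample, Cr2, a complement receptor, ranged from -2.41 to -1.12 in healthy, -3.65 to -1.92 in DNBS, -6.33 to -1.81 in CEC and -5.73 to -3.15 in Nissle samples, so that healthy and Nissle samples did not overlap. The single such endothelial gene, Selp, for P-selectin, ranged from -4.14 to -3.77 in healthy and -3.43 to -1.71 in DNBS samples. Its range was -4.39 to -1.66 in CEC and -3.08 to 0.31 in Nissle samples, so healthy samples overlapped neither DNBS nor Nissle samples. How many of all assays part the same groups as Cr2 or Selp is not given here. T cell assays (5) and mast cell and eosinophil assays (4) overlapped between all groups, and no smooth muscle or fibroblast gene listed is on the panel. None of the assays of these lists was called in DNBS against healthy, and their part in the differences of the reference genes was not tested. Of the 19 heat shock and chaperone genes listed beside Hsp90ab1, only Hspd1, for the mitochondrial HSP60, is on the panel; it was 0.45 higher in DNBS than in healthy samples and was not called.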

How the data were processed

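Per the file headers, the deposited table holds raw Ct values that the authors did not normalize, and the header calls it a truncated example. Per the labels' protocols, total RNA of ileal mucosa was run on TaqMan OpenArray cards; threshold and baseline settings, software and well replicates are not given in the sources used here. A Ct of 40 (1273 of 12960 cells) was taken as undetermined, and 1 cell was empty. The 9 assays and the gene lists were chosen with earlier results of these data known. Named genes are the 9 assays, the 3 nearest assays to each, the 5 with the lowest SD, listed reference and heat shock genes on the panel, and Il6, Cxcl2, Il1b, S100a8 and Atrn.

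The relative level was fitted with limma 3.58.1 in R 4.3.3 (group means, eBayes with a trend) over the 569 assays with at least 3 values in each group, adjusted by Benjamini-Hochberg over these, with a threshold of 0.05. Intervals are 95% intervals. Pairs of assays were compared by exact permutation over 15504 arrangements in Python 3.11.15 (scipy 1.17.1). The tests were tried on simulated data first. Ct values give no read depth, so the number of samples limits the precision. Alternatives were other normalizers, filters, weights, samples left out and a replicate block; centring the runs of rows and leaving out DNBS 5 and healthy 5 were chosen after seeing the data. The healthy and DNBS groups share 3 sample numbers, and the deviations of same-numbered samples correlated by 0.14 to 0.49. The highest value was that of healthy 5 and DNBS 5, in which the runs stood furthest apart. Deviations of differently numbered samples are not given for comparison. The labels do not say that the numbers pair samples, so a pairing was taken on the data alone, and only in the replicate block. The main fit was unpaired. Other pairs of groups, in part with negative correlations, gave no ground for pairing, except that the 2 numbers shared by healthy and CEC samples correlated by 0.11 and 0.13, too few to decide. The permutation within numbers still set each healthy sample against all DNBS-treated samples of its number, CEC and Nissle samples included.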

Additional observations from a re-analysis of the deposited data

Results flagged for a closer look

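Among 44 groups of 5 values tested, 5 held a sample far from the others. The rule is set to flag about 1 in 20 groups of independent, normally spread values. Gaps between assays are not such values and the groups share samples, so the count cannot be set against chance. The relative level of Hprt1_Mm01318743_m1 was 2.12 in DNBS 5, where the nearest other DNBS sample had 3.33. The gap between the highest and lowest Hprt1 assay, after each assay's own mean was removed, was 2.38 in healthy 5, against 0.489 in the nearest healthy sample. The gap among the Gusb assays was 2.05 in healthy 5 (nearest healthy sample 0.612), 1.14 in DNBS 5 (nearest DNBS sample 0.423) and 0.605 in Nissle 2 (nearest Nissle sample 0.225). With the runs of table rows centred, the largest gap in any sample was 1.08 for Hprt1 and 0.679 for Gusb; the cause of the gaps was not tested.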

How the results depend on the processing

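None of the 9 assays was called in any comparison under the 34 alternative settings tried (smallest limma adjusted p 0.129). Of 2133 alternative values of their differences 121 changed sign, none from a difference larger than 0.34 on the log2 scale. With the replicate block, 0 of the 9 assays and 0 of the 36 pairs were called (smallest adjusted p of a pair 0.938, exact permutation within numbers). That permutation had only 48 arrangements, so a pair could pass only if many pairs reached the smallest possible p together. The absence of a call for the pairs therefore says little. Leaving out 1 sample gave a smallest adjusted p over pairs of 0.0867 to 0.953 by exact permutation. The number of all assays called in DNBS against healthy, 1 with all samples, was 0 with no normalization, 9 with only the compared groups in the fit, 101 with array weights, 2 with the replicate block and 1 to 7 with 1 sample left out. Array weights also gave 47 calls in CEC against DNBS and 48 for any difference among the groups, against 0 and 1; the cause was not tested. By quantile normalization the SD was 0.138 for Hprt1_Mm01324427_m1 and 0.149 for Hprt1_Mm00446968_m1. With 5 samples a group, the median SE over all assays was 0.42 on the log2 scale, which limits what could be called.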
